A study of Mus musculus with 19 samples.

Results

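The nuclear-coded subunits and factors of oxidative phosphorylation were examined in mouse hippocampal slices, first for how much ribosome-protected RNA each message carried at rest and then for its response to a brief stimulation of group I metabotropic glutamate receptors. A gene was a member when its symbol, in both count tables, began with Nduf, Sdh, Uqcr, Cox4, Cox5, Cox6, Cox7, Cox8 or Atp5 and did not end in -ps, which marks pseudogenes. The rule found 94 of the 20436 genes. By the known place of the proteins, 44 belonged to complex I, 6 to complex II, 8 to complex III, 20 to complex IV and 16 to complex V. Of these, 74 encode structural subunits that are made broadly, 12 encode assembly factors and other helpers, and 8 encode isoforms better known from heart, muscle, testis or oxygen-poor tissue. Symbols did not always match the protein's place. Ndufa4 is named for complex I but is now placed in complex IV, and Atp5sl, also called Dmac2, is known as an assembly factor of complex I. None of the 13 symbols of subunits coded by mitochondrial DNA was in the tables, so that side of each complex was not analysed here.

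Complexes I to IV pass electrons from NADH and succinate to oxygen and pump protons out of the mitochondrial matrix, except for complex II, which pumps none. Complex V, the ATP synthase, lets the protons back in and makes ATP. Most subunits are coded in the nucleus, translated in the cytosol and imported, while a few membrane subunits of complexes I, III, IV and V are made inside the mitochondrion. Neurons depend heavily on this pathway, because restoring ion gradients after synaptic activity costs much ATP.

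Slices came from wild-type male mice, which the sample labels describe as 28 to 42 days old, and the slices of 6 mice were pooled for each replicate. They were given the receptor agonist DHPG at 100 µM or vehicle (basal) for 5 min, and slices of both groups were then treated with cycloheximide at 100 µg/ml, which stops elongating ribosomes. RNA-seq measured messages in 4 basal and 5 DHPG libraries, and ribosome profiling counted ribosome-protected fragments (RPFs), pieces of message that a ribosome shields from nuclease, in 5 basal and 5 DHPG libraries. The DHPG RNA library of replicate 5 had no basal partner. Unlike the later batches, the study prepared these slices without cutting off CA3. Total counts ran from 4870813 to 7793244 in the RNA libraries and from 5692064 to 22092434 in the RPF libraries. A p-value from edgeR here measures the spread, between pools of slices, of the differences within replicates. For the ratio at rest it holds no error of the gene lengths. A bulk library cannot tell fewer cells of a type from less RNA per cell.

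The bases around a start codon are read by the scanning ribosome, so the 20-base windows of the member with the highest RPF to RNA ratio of each complex, and of the lowest in complexes II to V, are shown first. Each runs from 10 bases before the ATG to 7 bases after it in the transcript used for the lengths (GENCODE M21, GRCm38, mm10), and the capitals mark the base at position -3, the ATG and the base that follows it.
Ndufab1, highest of complex I, chr7:122101813-122101832, minus strand: tggcgtaGccATGGcgtctc
Sdhc, highest of complex II, chr1:171150569-171150588, minus strand: ggaactcAagATGGctgcgt
Sdhb, lowest of complex II, chr4:140961395-140961414, plus strand: aggagccAaaATGGcggcga
Uqcrq, highest of complex III, chr11:53430680-53430699, minus strand: cgccgtcAccATGGgccgcg
Uqcrc1, lowest of complex III, chr9:108936709-108936728, plus strand: aagttagAagATGGcggcgt
Cox7b, highest of complex IV, chrX:106015821-106015840, plus strand: cgtctccGcgATGTtgccct
Cox4i1, lowest of complex IV, chr8:120668347-120669319, plus strand, spanning an intron: cggtggcAgaATGTtggctt
Atp5e, highest of complex V, chr2:174463987-174464006, minus strand: tcgagacAccATGGtggcgt
Atp5b, lowest of complex V, chr10:128083317-128083336, plus strand: ggattccGccATGTtgagtc
Cox6a1, the one structural subunit without a purine at -3, chr5:115348941-115348960, minus strand: gtgtagtTccATGAtggcgt

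A purine (A or G) at -3 was present in 89 of 93 members with a window, or 95.7%, against 85.2% of 18426 genes and 86.2% of the 12169 genes whose ratio was tested. Among the structural subunits 72 of 73 had one. The G after the ATG was no commoner in members (50.5%) than in all genes (50.0%). Sdhc and Sdhb, at opposite ends of complex II, both carried a purine and the G. Members with both letters had a median log2 ratio of 0.74 (46 genes) and members without both 0.63 (41 genes). In the structural subunits alone the medians were alike, at 0.73 with both (39 genes) and 0.73 without (34 genes). The median 5′ untranslated region was 94 bases in members and 102.5 in the structural subunits. It was 134 bases in all genes and 166 in the genes whose ratio was tested.

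Nuclear-coded respiratory genes are known targets of NRF-1, a transcription factor that binds a GC-rich palindrome, and the promoter of Sdha, the flavin subunit of complex II, held its letters at 3 places. The motif searched on both strands was GCGCA, any base and GCGC, in RefSeq windows (GRCm38.p6) from 250 bases before to 50 after a gene's start, and it is printed in capitals.
Sdha, chr13:74350321-74350346, minus strand: tttacaggGCGCAGGCGCaccaccac
Sdha, chr13:74350278-74350303, minus strand: ggcgtgttGCGCAGGCGCagaatctt
Sdha, chr13:74350233-74350258, minus strand: gactcggtGCGCAAGCGCagtctgtc
Atp5g2, chr15:102671072-102671097, minus strand: ctccggccGCGCATGCGCagagcctt
Uqcrc1, chr9:108936670-108936695, plus strand: tccgctctGCGCATGCGCagcgcggc

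Promoter windows were found for 76 of the 94 members, and 19 of them (25%) held the NRF-1 letters, against 5.19% of 27025 genes and 11.3% of the 9606 genes with a window whose ratio was tested. The letters AAGATGGC of YY1 were in 10 members (13.2%), against 3.19% of all genes and 5.1% of those tested. They contain an ATG and the G after it, and also stand at the start codons of Sdhc and Uqcrc1 printed above. Matches at start codons were not set apart in this count. The letters CCGGAAGT of GABPA, also called NRF-2, were in 5 members (6.58%), above the 4.31% of all genes but below the 8.58% of those tested. TCAAGGTCA of the estrogen-related receptor was in 2 (2.63%), against 0.466% and 0.364%. A match is a description of the letters and not of binding.

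At rest the members together took a larger share of the RPF counts than of the RNA counts. They made up 1.53% ± 0.0987 of the RNA counts (SD, n = 4) and 1.96% ± 0.0795 of the RPF counts (SD, n = 5), and the lowest RPF library, at 1.87%, lay above the highest RNA library, at 1.64%. Complex V held the largest part, with 0.572% ± 0.0399 of RNA counts and 0.727% ± 0.0336 of RPF counts, and complex II the smallest, with 0.0790% ± 0.00525 and 0.0972% ± 0.00575. The 8 tissue isoforms together held 0.00062% of RNA counts.

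Per length, the median ribosome load of the members at rest was above that of the typical gene in all 5 complexes, and each complex also held members below it. The RPF to RNA ratio was taken as the log2 of RPF counts per trimmed coding length over RNA counts per transcript length, set to 0 for the median gene of each replicate, in the 4 replicates with both basal libraries. The median over 88 members with enough counts was 0.70, a ratio 1.63-fold that of the median gene, with 66 members above 0 and 36 (40.9%) in the upper quartile of all genes. The replicates gave medians of 0.94, 0.77, 0.48 and 0.72. The median was 1.32 for the 8 subunits of complex III, 1.30 for the 11 of complex IV, 0.92 for the 15 of complex V, 0.68 for the 4 of complex II and 0.53 for the 36 of complex I. In every replicate complex I was below complex V. Complexes III and IV were not separated from each other, with replicate medians from 1.10 to 1.45 in complex III and from 0.80 to 1.74 in complex IV. The order of the complexes rested on the length correction: without it the medians were 0.65 in complex I, 0.59 in II, 1.09 in III, 0.51 in IV and 0.80 in V, so complex IV went from near the top to the lowest place.

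**Figure D1:**
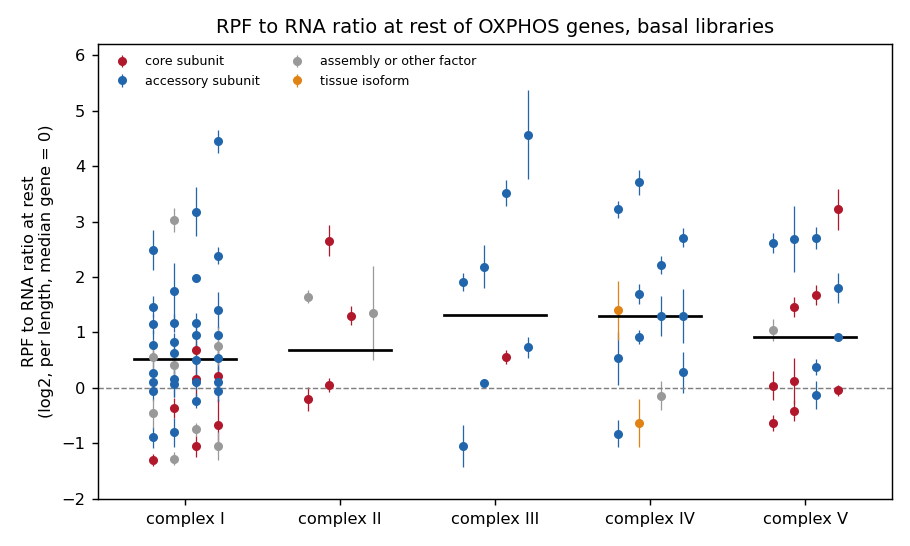
Log2 RPF to RNA ratio at rest per length (vertical axis, 0 is the median gene) of each member tested, by complex (horizontal axis) and coloured by class, as mean and SD of 4 replicates, with a black line at the median of the structural subunits. Complexes III and IV have medians of 1.32 and 1.30, and single members of complex I reach 4.45.

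A test of each ratio against the typical gene called 67 of the 88 members in edgeR (adjusted p under 0.05), but 78.2% of all 12629 genes passed it too. Read by direction, 53 members (60.2%) were called above, against 39.2% of all genes, and 14 (15.9%) below, against 39% of all genes. The calls above were 19 of 36 in complex I, 2 of 4 in complex II, 6 of 8 in complex III, 9 of 11 in complex IV and 9 of 15 in complex V.

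Within complexes several large core subunits had low ratios and several small accessory subunits high ones. In complex I the 7 core subunits, which carry the flavin and the iron-sulfur clusters, had a median log2 ratio of -0.36, with 4 called below and 1 above, while the 29 accessory subunits had a median of 0.78. Ndufv1, which binds NADH, had -0.89, -1.01, -1.33 and -0.98 in replicates 1 to 4. Ndufab1, the mitochondrial acyl carrier protein, had 4.68, 4.49, 4.18 and 4.45. Per length, all 4 replicates of Ndufab1 thus lay over 5 log2 units above those of Ndufv1. Part of this gap came from the lengths, with a transcript of 3479 and a coding sequence of 471 bases for Ndufab1, against 1661 and 1395 for Ndufv1. In CPM at rest, Ndufab1 had 40.1 to 49.9 in RNA and 192 to 221 in RPF. Ndufv1 had 250 to 304 in RNA and 172 to 210 in RPF, so the gap was smaller but in the same direction. Ndufs1, the largest iron-sulfur subunit, had no settled place, with -0.23, 0.50, 0.72 and -0.13.

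The other complexes were spread over different ranges. In complex V the highest member was itself a core subunit, as it was in complex II, whose 4 structural subunits are all core. In complex II, Sdha and the iron-sulfur subunit Sdhb were near the median gene, at 0.05 ± 0.12 and -0.19 ± 0.22 (SD, n = 4), and the membrane anchor Sdhc was at 2.65 ± 0.28. In complex III the core protein Uqcrc1 was at -1.04 ± 0.38 and the Rieske protein Uqcrfs1 at 0.56 ± 0.13, while the small subunits Uqcrb, Uqcr11 and Uqcrq were at 1.91 ± 0.16, 3.52 ± 0.23 and 4.57 ± 0.80. In complex IV, Cox4i1 was the lowest structural subunit at -0.82 ± 0.24, Cox5b was at 0.92 ± 0.13 and Cox6b1 at 2.22 ± 0.17, and Ndufa4 and Cox7b were at 3.22 ± 0.15 and 3.71 ± 0.22. In complex V the catalytic subunits Atp5b and Atp5a1 were at -0.62 ± 0.14 and -0.04 ± 0.10, and the small Atp5e at 3.22 ± 0.37. The 12 factors had a median of 0.48, from -1.27 for Ndufaf5, a methyltransferase-like assembly factor, upward.

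Coding length moved with these ratios in all genes, and the members are short, with a median coding sequence of 438 bases against 1239 in all genes. Among genes of like coding length up to 2000 bases the members' ratios per length were lower than those of the other genes. Under 300 bases the median log2 ratio was 2.30 in 18 members and 3.01 in 170 other genes. From 300 to 450 bases it was 0.94 against 1.72, from 450 to 600 bases 0.85 against 1.47, from 600 to 1000 bases 0.02 against 0.74, and from 1000 to 2000 bases -0.62 against 0.01. Over 2000 bases the 1 member was at 0.22, against -0.78. Without any correction for length the difference was smaller and had no fixed direction: the log2 ratio of CPM, counts scaled to library size by edgeR, had medians in members and other genes of 1.71 and 1.63 under 300 bases, 0.73 and 0.94 from 300 to 450, 0.81 and 0.65 from 450 to 600, 0.33 and 0.34 from 600 to 1000, and 0.03 and -0.04 from 1000 to 2000. The choice of transcript mattered too. With median transcript lengths in place of those of the chosen transcript, 12 of the 88 members moved by over 0.5 on the log2 scale. Ndufab1 was then at 3.93, Sdhc at 2.15 and Atp5g1 at 2.20, and Uqcrq, at 2.96, was below Uqcr11, at 3.51.

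**Figure D2:**
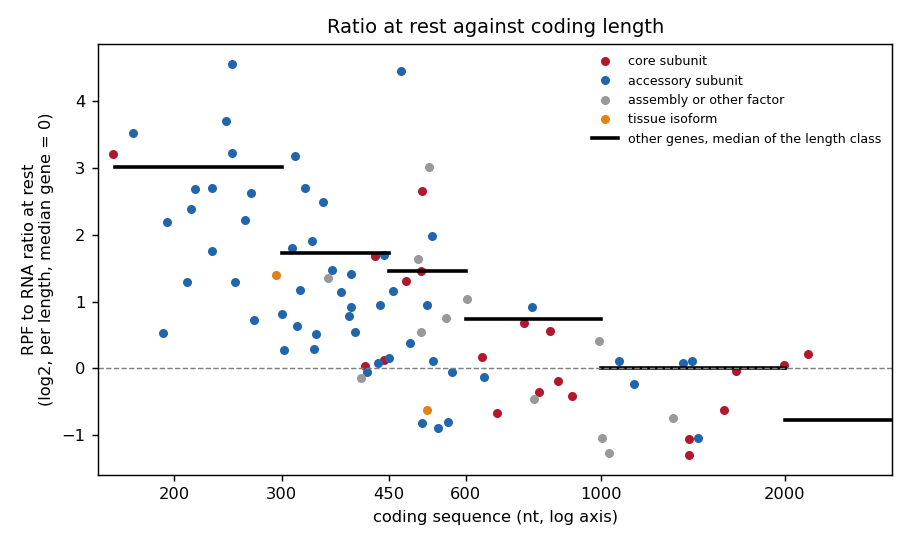
Log2 RPF to RNA ratio at rest per length (vertical axis, 0 is the median gene) against coding length in bases (horizontal log axis) for each member, coloured by class, with a black line at the median of the other genes in each length class. The medians of the members fall from 2.30 under 300 bases to -0.62 between 1000 and 2000 bases and lie below those of the other genes in the classes up to 2000 bases.

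Several subunits exist as isoforms from different genes, and the broadly expressed one held nearly all counts in these slices. Values here are CPM per kilobase of transcript or trimmed coding sequence, with basal RNA n = 4 and basal RPF n = 5. Cox4i1 had 1459 ± 181 in RNA and 1462 ± 85.1 in RPF, and its isoform Cox4i2, known from lung and the response to low oxygen, 2.60 ± 1.09 and 2.98 ± 0.48. The main isoform held 99.5% of RNA and 98.7% of RPF in the Cox6a family (Cox6a1), 99.4% and 99.6% in Cox6b (Cox6b1), and 99.2% and 99.6% in Cox7a (Cox7a2). Cox8a held 99.9% of its family in both. The heart and muscle isoform Cox8b had 0 or 1 counts in each basal RNA library, and the testis isoform Cox8c had 0 counts in all 19 libraries, which allows up to 3 counts per library. Ndufa4l2, a paralog of Ndufa4 known from the response to low oxygen, was also low, at 0.206 to 0.705 CPM in basal RNA, while Ndufa4 was at 114.6 to 145.2 CPM.

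Subunit c, which forms the rotating ring of the ATP synthase, comes from 3 genes whose mature proteins are identical, and the balance between them differed between RNA and RPF. Per length, Atp5g1 held 44.5% ± 1.25, Atp5g2 19.6% ± 1.03 and Atp5g3 35.9% ± 2.17 of the family's RNA at rest (SD, n = 4). In RPF the shares were 25.3% ± 0.821, 12.0% ± 1.05 and 62.8% ± 0.941 (SD, n = 5). The RNA share of Atp5g3 ran from 33.4% to 38.6% and its RPF share from 61.4% to 63.8%, without overlap. Its share was also higher in RPF on CPM alone (38.6% against 63.1%) and with median transcript lengths (50.9% against 62.8%), but the RNA order of Atp5g1 and Atp5g2 depended on the lengths, with 14.2% and 34.9% under median lengths. The log2 ratio of Atp5g3 was 1.68 ± 0.18, of Atp5g1 0.04 ± 0.26 and of Atp5g2 0.12 ± 0.42 (SD, n = 4). With median transcript lengths they were 1.68, 2.20 and -0.21, so whether Atp5g3 was above Atp5g1 depended on the lengths. These genes, like many of this pathway, have near-identical copies in the genome, and the study kept only uniquely mapped reads, so counts of single copies are uncertain.

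**Figure D3:**
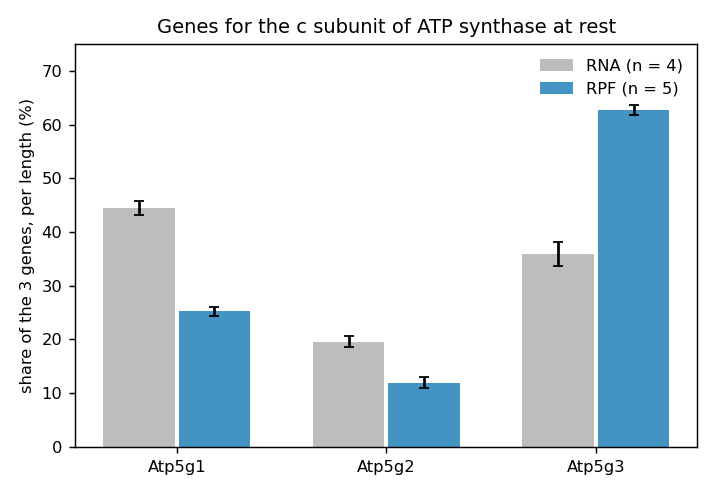
Mean share of the subunit c family's counts per length (vertical axis, percent) held by Atp5g1, Atp5g2 and Atp5g3 (horizontal axis) in basal RNA (grey, n = 4) and basal RPF (blue, n = 5), with SD as error bars. Atp5g3 holds 35.9% of RNA and 62.8% of RPF.

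Whether 5 min of receptor stimulation altered the messages of this pathway was tested by comparing DHPG with basal RNA. None of the 88 members tested passed an adjusted p of 0.01 in edgeR, against 0.00773% of 12935 genes (1 gene). The remaining 6, Cox6b2, Cox7a1, Cox7b2, Cox8b, Cox8c and Ndufa4l2, had too few counts. At an unadjusted p under 0.05, 18 members (20.5%) were lower, against 2.81% of all genes, and 0 were higher, against 5.2%. The median log2 change was -0.11, with 70 of 88 members lower and single members from -0.29 to 0.21, and 0.01 in all genes. Alternatives mattered here: with batch means removed by ComBat while keeping the treatment, and DESeq2 in place of edgeR, 5 members passed, all lower, of 102 genes in all (0.789%, 0.503% higher and 0.286% lower). They were Atp5a1, Atp5f1, Cox7a2, Uqcrb and Uqcrc1. With ComBat that did not keep the treatment, 0 members and 2 genes (0.0155%) passed.

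The size of the shift differed between replicate pairs. The median of the members was -0.06, 0.12, -0.17 and -0.25 in pairs 1 to 4, so pair 2 went the other way. Complexes I and IV had 0.17 and 0.19 in pair 2 and -0.26 and -0.31 in pair 4. Complex III was below 0 in each pair, at -0.09, -0.05, -0.18 and -0.22. This was not particular to complex III. The 7 core subunits of complex I had -0.07, -0.05, -0.15 and -0.23, and its 29 accessory subunits 0.23 in pair 2. The 12 assembly and other factors had -0.16, -0.06, -0.19 and -0.19. Complex II had -0.03, 0.07, -0.15 and -0.11, and complex V -0.09, 0.15, -0.21 and -0.20. Without replicate 2 the median of the members was -0.17, and without replicate 4 it was -0.05.

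**Figure D4:**
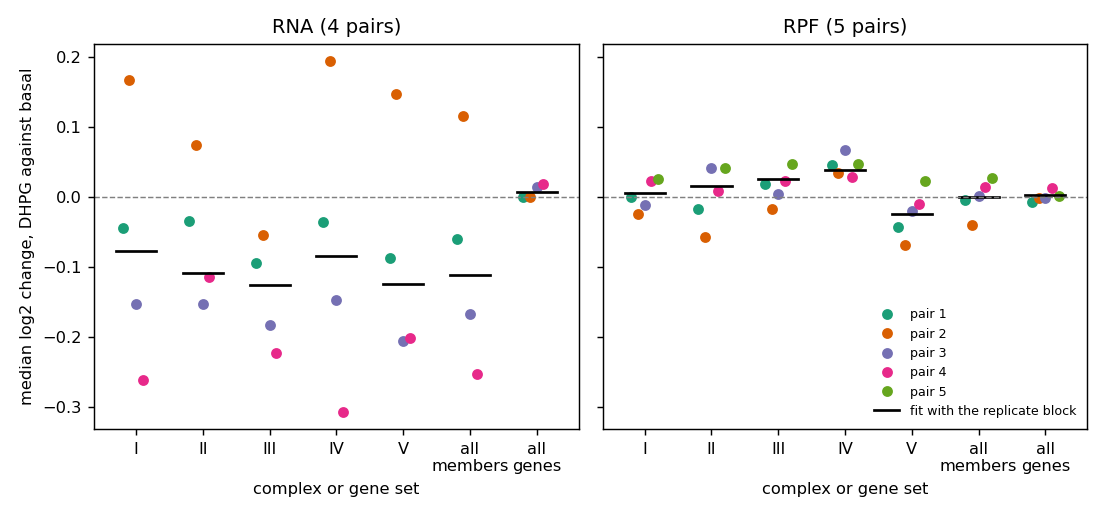
Median log2 change from basal to DHPG (vertical axis) in each replicate pair (coloured points) for the structural subunits of complexes I to V, all members and all genes (horizontal axis), in RNA and RPF, with a black line at the median of the edgeR fit. In RNA the complexes range from -0.31 to 0.19 and pair 2 is above 0 in all but complex III, while in RPF they stay between -0.07 and 0.07.

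No single message stood clear of its error after adjustment. Uqcrb, a small subunit of complex III, had 67.9, 57.8, 64.3 and 64.4 CPM in basal RNA and 53.5, 58.4, 49.9, 49.8 and 47.9 CPM after DHPG. Its replicate 2 value after DHPG was above the lowest basal value, so the groups overlapped. The log2 change was -0.27 (SE 0.08, adjusted p = 0.536 in edgeR), and it was lower in 3 of 4 pairs. Ndufaf7, a methyltransferase that assists the assembly of complex I, had 43.2, 46.7, 45.5 and 46.0 CPM in basal RNA and 37.1, 37.3, 31.5, 42.2 and 37.3 CPM after DHPG. Its groups did not overlap and 4 of 4 pairs were lower, with a log2 change of -0.29 (SE 0.09, adjusted p = 0.536 in edgeR). Ndufaf5 had 57.3 to 61.3 CPM in basal RNA and 41.9 to 61.3 CPM after DHPG, with the highest in replicate 2, and a log2 change of -0.26 (SE 0.08, adjusted p = 0.538 in edgeR). The most positive log2 changes by p were 0.12 for Cox6a1 (adjusted p = 0.672), 0.15 for Cox6b1 (0.680) and 0.21 for Sdhaf1 (0.782), an assembly factor of complex II.

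Of the 20 core subunits, 17 had a log2 change below 0, from -0.15 to 0.08 over all 20, and 7 were lower in 4 of 4 pairs. Among those 7 were Atp5a1, Ndufs1, Ndufv1, Sdha and Uqcrfs1, with -0.13, -0.13, -0.15, -0.12 and -0.09. Sdhb and Atp5b were lower in 3 of 4 pairs, with -0.13 and -0.08. Atp5d, the delta subunit, and Ndufs7, an iron-sulfur subunit, named here after their values were seen, were higher in 3 of 4 pairs, with 0.08 and 0.03. Of the accessory subunits named, Uqcrc1 was lower in 4 of 4 pairs (-0.14) and Cox4i1 and Cox5b in 3 of 4 (-0.08 and -0.04). Between replicates these messages differed by more than that: Ndufs1 had 201, 120, 103 and 201 CPM in basal RNA, and Cox7a2 174, 284, 318 and 170. A like split of the paired replicates was seen after DHPG, where Ndufs1 had 181, 108, 94.4, 186 and 175 CPM and Cox7a2 152, 217, 326, 142 and 235. Replicates 1 and 4 were therefore high for Ndufs1 and low for Cox7a2 under both treatments.

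Transcript length and the mix of cells moved with the RNA values too. In other genes with transcripts of 600 to 1000 bases the median log2 change was -0.03, and their pairs, at 0.02, 0.14, -0.07 and -0.19, had the same signs as those of the members in all pairs but the first. The members of that length had a median of -0.09. Members with transcripts of 1000 to 2000 bases had -0.12 and the other genes of that length -0.02. With each library's trend with length removed, the median of the members was -0.09. Of the cell type lists, 10 of 10 oligodendrocyte markers were higher in RNA (median log2 change 0.16), with a summed level of 2671 to 5629 CPM in basal and 3082 to 6438 CPM in DHPG libraries. All 8 thalamus markers tested were higher (0.45, summed 149.7 to 196.9 against 189.6 to 255.4 CPM, 1 of them called), and 7 of 9 endothelial markers were lower (-0.14, summed 71.8 to 102.5 against 63.2 to 78.9 CPM). The pair medians of the endothelial list were -0.01, -0.70, -0.11 and -0.07. Pyramidal neuron markers had a median of 0.07 (summed 4364 to 6799 against 4640 to 6743 CPM). Of the interneuron markers 8 of 10 were lower (-0.08), with pair medians of -0.04, -0.18, -0.06 and -0.07. Astrocyte markers had a median of 0.07, with 8 of 10 higher, and microglia markers -0.003, with 5 higher and 5 lower. No marker was at 0 in these libraries, and the part of length and cell mix in the members' values was not tested.

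In RPF the members as a group centred on 0. None of the 91 tested passed an adjusted p of 0.05 in edgeR, against 0.22% of 13208 genes (29 genes, 0.182% higher and 0.0379% lower). Cox7b2, Cox8b and Cox8c had too few counts. At an unadjusted p under 0.05, 8 members (8.79%) were higher, against 6.55% of all genes, and 0 were lower, against 4.21%. The median log2 change was 0.00, with 46 of 91 higher and single members from -0.18 to 0.26, and 0.00 in all genes, and the 5 pairs lay between -0.04 and 0.03. Both ends of that range were isoforms with few counts, Ndufa4l2 and Cox7a1, and the 74 structural subunits ran from -0.12 to 0.10. The summed share was 1.96% ± 0.0795 of RPF counts at rest and 1.95% ± 0.0988 after DHPG (SD, n = 5).

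Complexes IV and V leaned in opposite directions by small amounts. Complex IV had a median log2 change of 0.04, with 9 of 11 subunits higher and pairs of 0.05, 0.03, 0.07, 0.03 and 0.05, all above 0. Complex V had -0.02, with 13 of 15 subunits lower and pairs of -0.04, -0.07, -0.02, -0.01 and 0.02. The share of RPF counts was 0.400% ± 0.00979 at rest and 0.411% ± 0.0143 after DHPG for complex IV, and 0.727% ± 0.0336 and 0.712% ± 0.0447 for complex V (SD, n = 5). Within pairs the share of complex IV was higher after DHPG in 4 of 5, by 0.0106 ± 0.00809 percentage points, and that of complex V lower in 4 of 5, with a difference of -0.0153 ± 0.0189 (mean and SD of 5 pairs). With the length trend removed complex IV had 0.02. The medians of complexes I, II and III were 0.01, 0.02 and 0.03.

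The 4 subunits of complex IV with an unadjusted p under 0.05 in RPF were Cox7a2, Cox7b, Cox4i1 and Cox8a, all higher after DHPG. Cox7a2 had 294, 280, 284, 278 and 291 CPM of RPF at rest and 301, 312, 310, 296 and 307 CPM after DHPG. All 5 DHPG libraries were above all 5 basal libraries, a log2 change of 0.10 (SE 0.03, adjusted p = 0.155 in edgeR). Cox7a2 passed with ComBat followed by DESeq2 (adjusted p = 0.0169), as the only member among 83 genes (0.628%). Cox7b had 331, 345, 332, 300.03 and 309 CPM of RPF at rest and 373, 384, 364, 300.01 and 313 CPM after DHPG. Replicates 1 to 3 of Cox7b were higher after DHPG and replicates 4 and 5 nearly level, a log2 change of 0.10 (SE 0.03, adjusted p = 0.209 in edgeR). Cox4i1, which helps to set the activity of cytochrome c oxidase, was higher in 5 of 5 pairs (0.07, adjusted p = 0.350), and Cox8a in 4 of 5 (0.08, adjusted p = 0.355). In complex III, Uqcr11 was higher in 4 of 5 pairs (0.10, SE 0.04, adjusted p = 0.318). With ComBat keeping the treatment, followed by DESeq2, these 5 (Cox7a2, Cox7b, Cox4i1, Cox8a and Uqcr11) passed among 431 genes (3.26%, 2.18% higher and 1.08% lower). The most negative by p were Ndufab1 at -0.06 (adjusted p = 0.483), Cox7c at -0.12 (0.507) and the assembly factor Ndufaf1 at -0.10 (0.507).

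**Figure D5:**
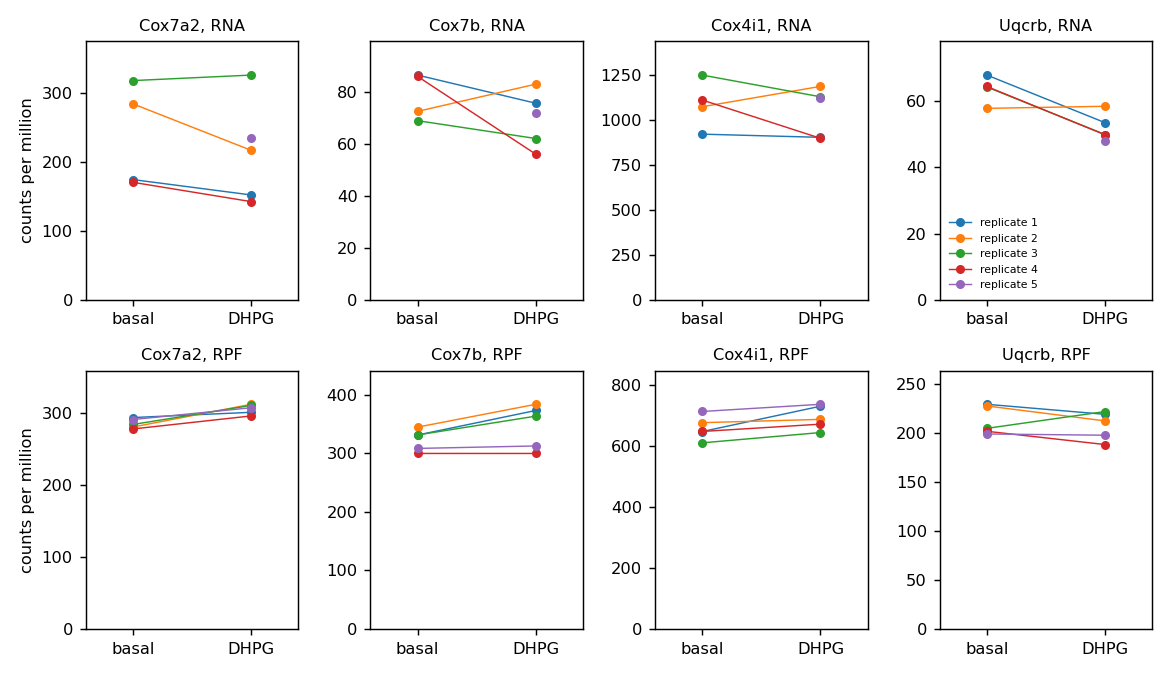
CPM in RNA (upper row) and RPF (lower row) on the vertical axes for Cox7a2, Cox7b, Cox4i1 and Uqcrb, with basal and DHPG on the horizontal axes and a line joining the libraries of one replicate. The RPF values of Cox7a2 are 278 to 294 at rest and 296 to 312 after DHPG, while its basal RNA values range from 170 to 318.

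Cell type lists moved in RPF as well. In the edgeR fit all 10 thalamus markers were higher (median log2 change 0.37, summed 201 to 251 against 206 to 325 CPM, 6 called). Their pair medians were 0.26, 0.57, 0.63, 0.42 and -0.29, so pair 5 went the other way. Also higher were 10 of 10 astrocyte markers (0.07) and 10 of 10 microglia markers (0.10), both with medians above 0 in each pair. In the fit all 10 endothelial markers were lower (-0.16, summed 53.0 to 82.9 against 52.0 to 72.8 CPM, 0 called). Their pair medians were 0.12, -0.71, -0.17, 0.10 and 0.12, so the pairs did not share this direction. Of the oligodendrocyte markers 7 of 10 were higher (0.05, 1 called), with pair medians of 0.04, 0.20, 0.00, 0.22 and -0.11. Interneuron and pyramidal neuron markers had medians of 0.00 (1 called) and 0.01 (0 called). Other genes with transcripts under 600 bases had a median of 0.02 and members of that length 0.03. The part of these in the values of complex IV was not tested.

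The change of the RPF to RNA ratio was tested in one edgeR model of all 19 libraries, by whether DHPG moved RPF and RNA unequally. None of 88 members passed an adjusted p of 0.05 in edgeR, and 0% of 12691 genes did. At an unadjusted p under 0.05, 15 members (17%) had a higher ratio after DHPG, against 3.14% of all genes, and 0 a lower one, against 3.63%. The median was 0.09, with 75 of 88 higher, and -0.00 in all genes. The ratio holds the RNA values above, so this is no separate result. The medians were 0.16 in complex IV, 0.12 in complex III, 0.11 in complex II, 0.09 in complex V and 0.08 in complex I. Cox7a2 had 0.29 (SE 0.07, adjusted p = 0.396 in edgeR), Cox7b 0.30 (SE 0.10, adjusted p = 0.645) and Ndufaf7 0.31 (SE 0.10, adjusted p = 0.645). Without replicate 2 the median of the members was 0.19, and without replicate 4 it was 0.06.

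Genes outside the symbol rule that work in or beside the complexes were taken as 4 further lists. Of 18 enzymes of the tricarboxylic acid cycle, which makes the NADH and succinate used by complexes I and II and here leaves out the Sdh genes, 17 were lower in RNA, with a median log2 change of -0.09 and 0 called, and 15 were lower in RPF (-0.02, 0 called). Their ratio at rest had a median of 0.45 on the log2 scale. Of 41 assembly factors with other symbols, 37 were tested in RNA, with a median of -0.06, 21 lower and 0 called, and 38 in RPF, with 0.02, 27 higher and 0 called. Cytochrome c carries electrons to complex IV, and cytochrome c1 is a subunit of complex III whose symbol the rule does not take. Together they had a median of -0.09 in RNA and 0.03 in RPF, with 0 of 2 called in either. Of 14 regulators of mitochondrial gene expression, 13 were tested, with medians of -0.03 in RNA and -0.02 in RPF and 0 called. In RNA all 4 lists had a median below the 0.01 of all genes.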

How the data were processed

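The 19 samples are RNA and RPF libraries of wild-type slices. The authors aligned reads to mm10, kept uniquely mapped reads without duplicates, and deposited RSEM expected counts, rounded, for RNA on transcripts and for RPFs on coding sequences without 30 bases at each end. The 12 columns of no sample were not used. Positions, lengths and start windows came from GENCODE M21, with 99.5% of genes matched.

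DHPG was compared with basal in R 4.3.3 by edgeR 4.0.16, with its quasi-likelihood test, TMM scaling and filterByExpr. P-values were adjusted by Benjamini-Hochberg across every gene in a fit, and calls needed 0.01 for RNA and 0.05 for RPF and ratios. Every adjusted p is from edgeR unless DESeq2 is named. Replicate number was a block because the study's numbers are batches, and deviations of paired libraries correlated at 0.308 to 0.741 in RNA and 0.259 to 0.523 in RPF. The ratio at rest compared assays within replicates 1 to 4, centred on the median gene. Log2 CPM used a prior count of 2. Median standard errors of a log2 change were 0.100 in RNA and 0.0598 in RPF. Alternatives used limma 3.58.1, DESeq2 1.42.0 and sva 3.50.0 (ComBat on log2 CPM with 0.5 added, the study's kind of batch correction) and loess with a span of 0.5. The steps were tested on simulated data.

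Members named were those past a threshold, the 3 of smallest p per assay and direction, the highest and lowest ratio of each complex, catalytic or core subunits, and 7 isoform families, and 1 member so chosen is not reported here. Atp5f1 was named after its values were seen. Members and lists were chosen with earlier results of these data known.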

Additional observations from a re-analysis of the deposited data

Results flagged for a closer look

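Of 198 groups of 4 or 5 libraries screened for 1 value far from the rest by Dixon's test, 9 held one. Chance flags about 1 in 20 groups.

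In RNA, Atp5e had 25.1 CPM in DHPG replicate 2, where the other DHPG libraries had at most 17.5. In basal replicate 3, Atp5g3 had 262 CPM (next 225) and Sdhb 283.0 CPM (next 244), and the structural subunits of complex III together held 0.135% of counts (next 0.120%). Basal replicate 3 was thus the high library in 3 of these. In RPF, Atp5g1 had 269.7 CPM in basal replicate 5 (next 256) and Cox7a1, a heart and muscle isoform with few counts, 2.17 CPM in basal replicate 1 (next 1.23). Low values were those of Cox6b1 in basal replicate 3, with 225 CPM (next 251) and of Sdhc in DHPG replicate 2, with 144 CPM (next 155). The RPF to RNA ratio at rest of Cox7c was -0.18 on the log2 scale in replicate 3, against 0.71 or more in the others.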

How the results depend on the processing

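The alternatives gave 295 values for the group results, of which 279 stayed within the spread of the replicates or 1.5 times the count. ComBat keeping the treatment, an alternative chosen after seeing the data, with DESeq2 gave 5 members called in RNA and 5 in RPF, and ComBat without it 1 in RPF. ComBat removes batch means before the test, which then does not count them as estimated. Without the replicate block the median changes were -0.09 in RNA and 0.00 in RPF, and the block changed no call of DHPG against basal. With length trends removed, complex IV in RPF was 0.019. In the ratio at rest, no length correction gave 9 members called below and log2 medians of 0.65, 0.58, 1.09, 0.50 and 0.79 in complexes I to V in the edgeR fit, which put complex IV last. Median transcript lengths gave 0.93 for the members, 0.75 for complex I and 1.44 for complex V. DHPG libraries gave 0.73 for complex II, 1.60 for III and 1.01 for V.

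With each replicate left out in turn, complex IV in RPF ranged from 0.026 to 0.068, the member medians from -0.17 to -0.05 in RNA, from -0.01 to 0.00 in RPF and from 0.06 to 0.19 in the change of the ratio, and calls at rest from 50 to 54 above and 12 to 15 below.

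Small single changes turned sign, without a call on either side. In RNA this was Atp5g2 without the block (0.071) and with length trends removed (0.0093), Uqcrq without the block (-0.019) and Uqcr11 with length trends removed (0.0090). In RPF it was Atp5g1 without the block (0.0014), Atp5b with length trends removed (-0.00086) and Uqcrfs1 with length trends removed (-0.0040), ComBat (-0.0011) and ComBat keeping the treatment (-0.0039). With a replicate left out, changes in RNA ranged from -0.32 to 0.035 for Atp5e, -0.062 to 0.042 for Atp5g2, -0.29 to 0.077 for Cox4i2, -0.18 to 0.068 for Cox5b, -0.26 to 0.086 for Cox7c, -0.066 to 0.11 for Cox8a, -0.19 to 0.058 for Uqcr11 and -0.036 to 0.13 for Uqcrq. In RPF they ranged from -0.017 to 0.020 for Atp5b, -0.021 to 0.013 for Atp5g1, -0.24 to 0.10 for Cox4i2, -0.18 to 0.16 for Cox6a2, -0.075 to 0.26 for Cox6b2, -0.025 to 0.061 for Ndufaf7, -0.026 to 0.0068 for Ndufs1, -0.022 to 0.016 for Sdhb, -0.0029 to 0.065 for Sdhc and -0.022 to 0.013 for Uqcrfs1. The cause of these was not tested. Expected counts carry counting error, and the split of reads between near-identical copies cannot be undone.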
